A study of Caenorhabditis elegans with 12 samples.

Results

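The 9 genes described here act on collagen after its translation, or cross-link it once it is in the worm's cuticle. They are dpy-18, phy-2, let-268, bli-3, bli-4, bli-5, mlt-7, dpy-31 and tsp-15, chosen by name as the collagen-modifying and cuticle cross-linking enzymes, and all 9 were found among the 46217 gene identifiers of the series. Of these, tsp-15 and bli-5 encode a membrane partner of an oxidase and a protein with a protease inhibitor domain, and are not themselves enzymes by that description.

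Total RNA of whole Caenorhabditis elegans hermaphrodites, collected at day 1 of adulthood after growth at 20 °C, was sequenced from 4 strains with 3 samples each, and values of 3 strains were used here. Wild type was strain PP1, the N2 Bristol background. Strain PP1386, called cpl-1*, carries the integrated transgene hhIs113 on chromosome I, which expresses a fluorescently tagged, misfolding form of CPL-1, a cathepsin L-like protease, from the promoter of nhx-2, a gene of the intestine. Strain PP2246, rde-1(ne219); cpl-1*, is called the double strain and carries hhIs113 together with the ne219 allele of rde-1 on chromosome V, a gene that encodes an Argonaute protein needed for RNA interference triggered by double-stranded RNA. The genotype labels write the transgene as W32AW35A with gfp in PP1386 and as W32AY35A with YFP and a pharyngeal Pmyo-2::mCherry marker in PP2246, under the same transgene name. By that name both cpl-1* strains rest on 1 integrated line, but the labels leave the difference in substitutions and tag unsettled. Values of the strain with the natively folded CPL-1 (cpl-1WT, PP1350) were not used here.

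The level of a gene is given as FPKM, a read count corrected for transcript length and library size, so levels can be compared between genes. The authors pooled the 3 samples of a strain into 1 FPKM, so no spread between samples could be computed from the levels. The tests that the authors deposited beside the levels were not used here, so no error or test is given and no difference below has a replicate check. The order of 2 genes or 2 strains is that of pooled values, and which neighbours would lie within the spread between samples is unknown. Ratios between strains are given as log2((FPKM + 0.1)/(FPKM + 0.1)), and as a fold on that same scale, which understates the change of low genes. A gene was counted as higher or lower where this ratio reached 2-fold, among the 15971 identifiers with at least 1 FPKM in at least 1 strain. All 9 genes passed this minimum, but bli-5 was below it in wild type and passed through the other strains. The median log2 ratio of all 15971 identifiers was -0.02 for cpl-1* against wild type, 0.14 for the double strain against cpl-1* and 0.12 for the double strain against wild type.

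The cuticle of the worm is an extracellular matrix of cross-linked collagens that the epidermis lays down anew at each molt. Collagen chains are hydroxylated on prolines and lysines in the endoplasmic reticulum, and the hydroxylation of prolines allows stable triple helices to form. Procollagens are then trimmed by proteases on their way out of the cell or outside it. In the matrix, a dual oxidase supplies hydrogen peroxide, and peroxidases use it to join tyrosines of neighbouring collagens. Mutants in these genes are commonly short and stout (Dpy), blistered (Bli) or unable to shed the old cuticle (Mlt), which is where many of the names come from.

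In cpl-1* against wild type, 8 of the 9 genes had a log2 ratio above 0, but 0 reached 2-fold in either direction. Across all identifiers, 16.4% were at least 2-fold higher and 2.5% at least 2-fold lower in this comparison. The share of all identifiers with a ratio above 0 was not computed. The median log2 ratio of the 9 was 0.23. Relative to the median of 10 muscle and intestine marker genes, an alternative chosen after seeing the data, that median was -0.11, and dpy-18, phy-2 and bli-5 were the 3 genes left above 0. In the double strain against cpl-1*, 4 of the 9 were at least 2-fold higher, where 26.1% of all identifiers were higher, and 0 were at least 2-fold lower, where 13.9% were. The 4 were dpy-18, phy-2, let-268 and bli-5, and the median log2 ratio of the 9 was 0.88. Relative to the same markers the median was 0.26, and phy-2 and let-268 were below 2-fold, at log2 ratios of 0.77 and 0.58, which left 2 of the 9. In the double strain against wild type, which adds no measurement of its own, 5 of the 9 were at least 2-fold higher against 31.7% of all identifiers, and 0 were lower against 17.8%. The gene added in that comparison was mlt-7. Relative to the markers, 2 genes (dpy-18 and bli-5) were at least 2-fold higher and 1 gene (bli-4, at -1.02) was at least 2-fold lower than in wild type, and mlt-7 was at 0.19. The cpl-1* values enter both of the first comparisons, so the ratios of a gene in them are not independent. For 8 of the 9 genes the level went up from wild type to cpl-1* and again to the double strain, and bli-4 was the exception. The share of all identifiers that went up in both steps was not computed. Of the marker lists described below, all 5 body wall muscle and 4 of 5 intestine markers also went up in both steps. Of the 10 oocyte and eggshell markers and the 6 yolk markers, 0 did. Among the 10 molting and epidermis markers, 7 went up in the first step, and all of these went up again in the second. Summed over the 9 genes, the level was 170 FPKM in wild type, 192 in cpl-1* and 383 in the double strain.

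**Figure D1:**
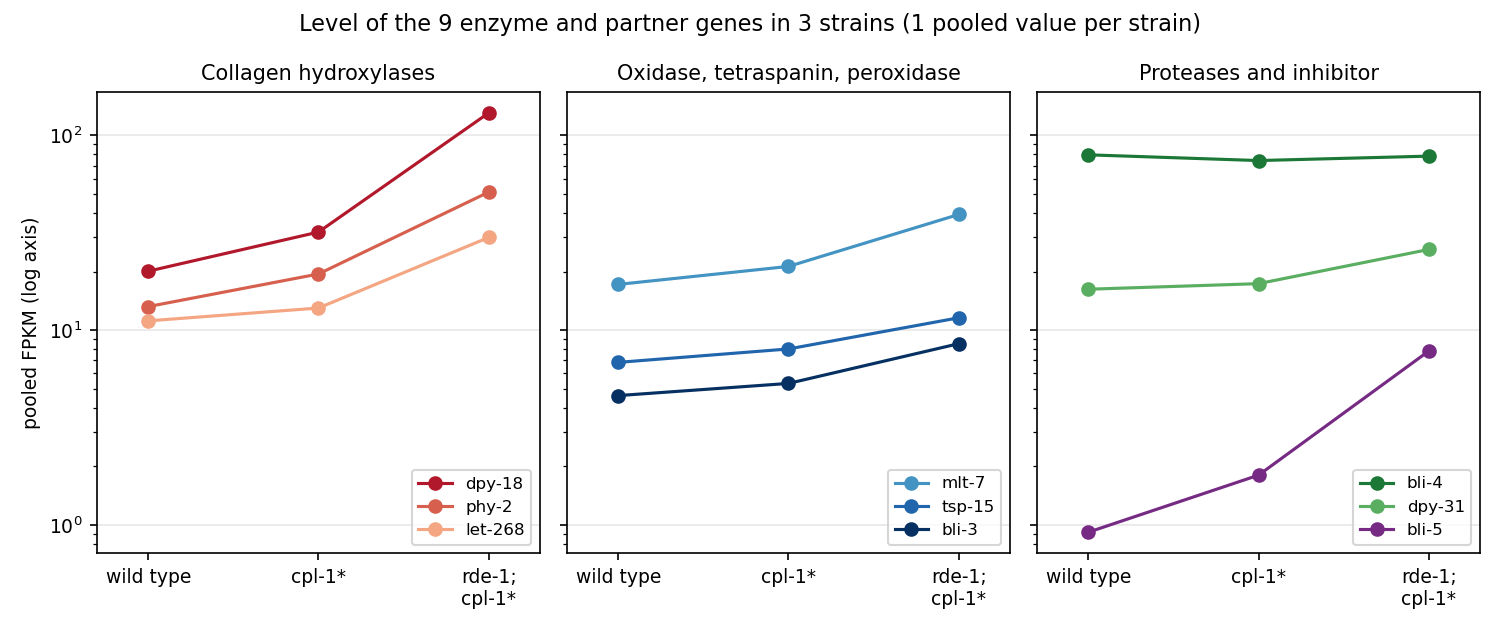
Pooled FPKM (log axis) of the 9 genes in wild type, cpl-1* and the double strain, in 3 panels by role, with 1 point per strain, no error bar and lines only to guide the eye. The hydroxylase genes and bli-5 climb most steeply, with dpy-18 going from 20.1 to 131 FPKM, while bli-4 stays between 74.3 and 79.5 FPKM.

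The whole-worm makeup of the RNA differed between these strains as well. The 10 oocyte and eggshell marker genes found were all at least 2-fold lower in the double strain than in cpl-1*, with a summed level of 5700 FPKM in wild type, 5506 in cpl-1* and 1242 in the double strain. The 6 vitellogenin genes, which encode yolk proteins, were all lower too, with summed levels of 9594, 9580 and 567 FPKM in the same order. The muscle and intestine markers listed here were mostly higher in that comparison. Of 5 body wall muscle markers all 5 had a log2 ratio above 0 and 0 reached 2-fold, with summed levels of 767, 1013 and 1422 FPKM, and of 5 intestine markers 4 were above 0 and 2 reached 2-fold, with summed levels of 2046, 2168 and 1600 FPKM. The median log2 ratio of these 10 markers together was 0.62, with a range from -0.64 to 1.21. Of the 9 genes, 6 lay above that median, and dpy-18, phy-2 and bli-5 lay above its highest marker. Of the 10 molting and epidermis markers found, 6 were at least 2-fold higher and 0 lower, with summed levels of 102, 154 and 649 FPKM. Their median log2 ratio for the double strain against cpl-1* was 2.61, with a range from -0.22 to 2.93. None of the 9 genes reached that median. The 6 higher markers were lin-42, mlt-8, mlt-9, noah-1, noah-2 and ptr-4, with log2 ratios from 2.58 to 2.93. The 4 markers that did not reach 2-fold were the transcription factor genes elt-1, elt-3, nhr-23 and nhr-25, with log2 ratios of -0.22, 0.51, -0.19 and 0.97. No marker of these lists was at 0 in any strain. In such whole-worm RNA, more cells of a type and more RNA per cell cannot be told apart. All samples were labelled day 1 of adulthood, and whether the strains matched in stage was not tested. The part of these differences in the levels of the 9 genes was not tested either.

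**Figure D2:**
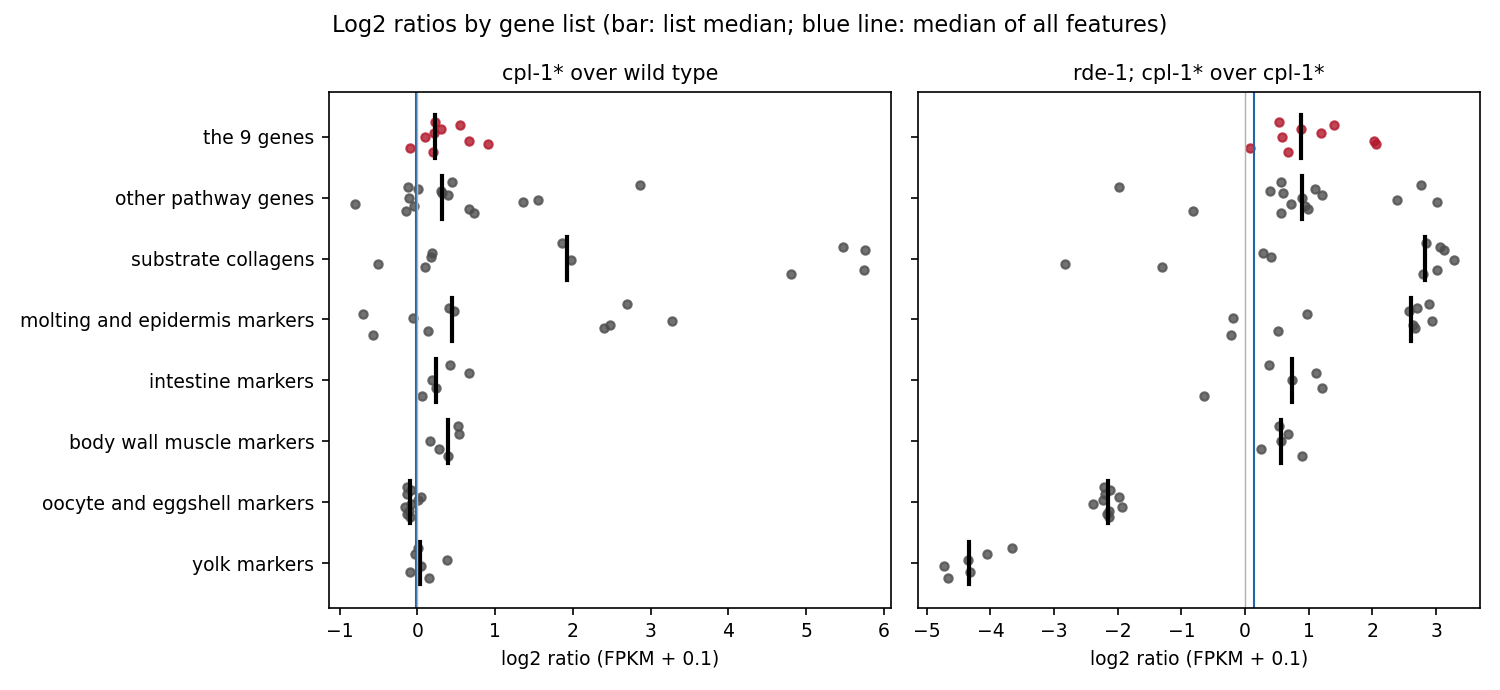
Log2 ratio of each gene (points) in the 9 genes and 7 comparison lists for cpl-1* over wild type (left) and the double strain over cpl-1* (right), with the list median as a black bar and the median of all identifiers as a blue line. On the right the 9 genes lie at or above 0.075, and the oocyte, eggshell and yolk markers all lie to their left. The median of the 9 is 0.88 and that of the substrate collagens is 2.82. These collagens range from -2.83 to 3.28, with 2 of 10 below 0, and include the basement membrane collagens emb-9 and let-2.

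The gene dpy-18 encodes a catalytic alpha subunit of prolyl 4-hydroxylase, the enzyme that hydroxylates collagen prolines in the endoplasmic reticulum. In build WBcel235 it spans 11372886 to 11377980 of chromosome III, minus strand, and its coding sequence of 559 codons is split over 7 exons in the annotated transcript. Its level was 20.1 FPKM in wild type, 31.9 in cpl-1* and 131 in the double strain. These values put dpy-18 second among the 9 genes in wild type and cpl-1*, and first in the double strain, above bli-4. The log2 ratio was 0.66 for cpl-1* against wild type and 2.03, or 4.08-fold, for the double strain against cpl-1*. In the latter comparison 1261 of the 15971 identifiers had a larger ratio than dpy-18. Relative to the median of all identifiers, the log2 ratio of dpy-18 was 1.89, and relative to the 10 muscle and intestine markers it was 1.41.

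The second alpha subunit, phy-2, lies on chromosome IV from 12211097 to 12215987 on the minus strand, with 539 codons. In the worm, DPY-18 and PHY-2 join the protein disulfide isomerase PDI-2, the beta subunit, in mixed complexes. The level of phy-2 was 13.2 FPKM in wild type, 19.4 in cpl-1* and 51.2 in the double strain. Its log2 ratio was 0.55 for cpl-1* against wild type and 1.39, or 2.63-fold, for the double strain against cpl-1*. The 2 alpha subunit genes thus shared a direction in both comparisons, with the larger ratio at dpy-18 each time. As a result the level of dpy-18 over that of phy-2 was 1.52 in wild type, 1.64 in cpl-1* and 2.55 in the double strain. In percent of both together, dpy-18 held 60.3%, 62.1% and 71.8%.

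The gene of the shared beta subunit, pdi-2, was the most abundant of the other genes listed beside the 9. It had 440.3 FPKM in wild type, 580 in cpl-1* and 1342 in the double strain. Its log2 ratio for the double strain against cpl-1* was 1.21, close to that of let-268 and below those of both alpha subunit genes. PDI-2 also acts as a disulfide isomerase on its own. Its level was 13.2 times the summed level of dpy-18 and phy-2 in wild type, 11.3 times in cpl-1* and 7.38 times in the double strain, so the alpha subunit genes gained on it from strain to strain. Of the further alpha subunit genes, phy-3 had 2.95, 3.70 and 5.64 FPKM in the same order. The gene phy-4 stayed below 1 FPKM in all 3 strains, at 0.0569, 0.0925 and 0.721 FPKM, and is not counted.

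The lysyl hydroxylase gene let-268 is the member that modifies lysines, and in the worm its product is needed for type IV collagen to leave the cell. It spans 10033266 to 10039980 of chromosome II, minus strand, with 730 codons in its longest coding sequence. Its level was 11.2 FPKM in wild type, 13.0 in cpl-1* and 29.9 in the double strain. The first 2 strains were nearly level, with a log2 ratio of 0.22, and the difference lay between the cpl-1* strains, with a log2 ratio of 1.20, or 2.29-fold. The type IV collagen genes of basement membranes differed less between these strains, with 102 and 136 FPKM for emb-9 (log2 ratio 0.40) and 141 and 172 FPKM for let-2 (log2 ratio 0.28). The level of emb-9 over that of let-268 was accordingly 8.13 in wild type, 7.89 in cpl-1* and 4.53 in the double strain. Summed over dpy-18, phy-2 and let-268, the hydroxylase genes stood at 44.5, 64.3 and 212 FPKM.

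**Figure D3:**
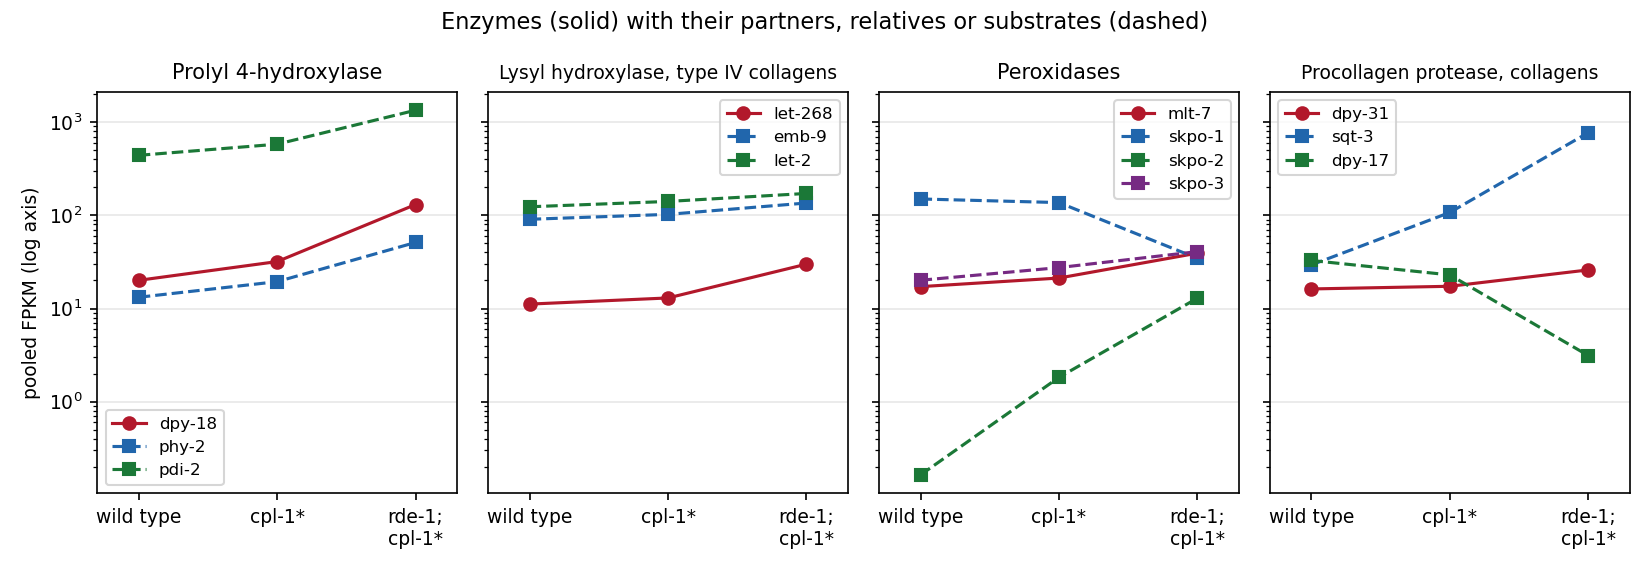
Pooled FPKM (log axis) in the 3 strains of dpy-18, let-268, mlt-7 and dpy-31 (solid lines) with subunit genes, related peroxidase genes or collagen genes (dashed lines), 1 point per strain and no error bar. The level of sqt-3 climbs from 29.4 to 771 FPKM while dpy-31 goes from 16.2 to 26.0 FPKM, and skpo-1 drops from 137 to 34.6 FPKM where mlt-7 goes from 21.2 to 39.3 FPKM.

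The oxidase module consists of bli-3, tsp-15 and mlt-7. The dual oxidase gene bli-3 lies on chromosome I from 145968 to 154855 on the minus strand and is the longest of the 9 in coding sequence, with 1497 codons. Its level was 4.61 FPKM in wild type, 5.32 in cpl-1* and 8.52 in the double strain. The tetraspanin gene tsp-15, whose product sits with BLI-3 in the membrane and supports its hydrogen peroxide production, lies on chromosome I from 8928750 to 8931089 on the plus strand, with 258 codons. It had 6.83 FPKM in wild type, 8.003 in cpl-1* and 11.6 in the double strain. Both genes stayed below 2-fold, with log2 ratios for the double strain against cpl-1* of 0.67 for bli-3 and 0.53 for tsp-15. Relative to the muscle and intestine markers these were 0.05 for bli-3 and -0.09 for tsp-15, so the sign of tsp-15 turned. Their levels kept close to each other, with bli-3 over tsp-15 at 0.675, 0.665 and 0.736. The third component of this complex, the maturation factor gene doxa-1, had 3.33, 5.33 and 10.6 FPKM, a log2 ratio of 0.98 in the same comparison. The second dual oxidase gene, duox-2, was at 0.0232, 0.0473 and 0.0550 FPKM, below 1 FPKM in all 3 strains, so bli-3 was the dual oxidase gene with a level above the minimum.

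The heme peroxidase gene mlt-7, whose product works with BLI-3 in cross-linking and is needed for molting, spans 4393007 to 4404850 of chromosome II, plus strand, with 724 codons. It had 17.2 FPKM in wild type, 21.2 in cpl-1* and 39.3 in the double strain. The log2 ratio was 0.30 for cpl-1* against wild type and 0.88, or 1.84-fold, for the double strain against cpl-1*, short of 2-fold. Against wild type the double strain reached a log2 ratio of 1.19. Relative to the muscle and intestine markers the values of mlt-7 were -0.03 for cpl-1* against wild type, 0.26 between the cpl-1* strains and 0.19 for the double strain against wild type. The related peroxidase genes skpo-1, skpo-2 and skpo-3 went in different directions. In cpl-1* and the double strain, skpo-1 had 137 and 34.6 FPKM, skpo-2 had 1.83 and 12.9 FPKM, and skpo-3 had 27.5 and 40.8 FPKM. The level of skpo-1 was 8.72 times that of mlt-7 in wild type and 6.45 times in cpl-1*, but 0.881 times in the double strain. Among peroxidasin genes, whose products act on basement membranes, pxn-1 had 9.54 and 12.5 FPKM and pxn-2 had 1.82 and 4.02 FPKM in the same 2 strains.

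Of the proteases, bli-4 encodes a furin-like proprotein convertase that cuts cuticle procollagens at basic residues. It lies on chromosome I from 6342224 to 6356680 on the plus strand, with 11 annotated transcripts. Its level was 79.5 FPKM in wild type, 74.3 in cpl-1* and 78.3 in the double strain. On the log2 scale these 3 values were the closest together of any of the 9 genes. The log2 ratios were -0.10 for cpl-1* against wild type and 0.08 for the double strain against cpl-1*. Relative to the median of all identifiers, the latter ratio had the opposite sign, at -0.07, and relative to the muscle and intestine markers it was -0.54. Being the most abundant of the 9 in wild type, bli-4 made up 46.9% of their summed level there, 38.6% in cpl-1* and 20.4% in the double strain. The rol-6 collagen, which carries such a basic cleavage site, had 0.432 FPKM in wild type, 28.7 in cpl-1* and 252 in the double strain. The level of rol-6 over that of bli-4 thus went from 0.00542 to 0.386 and 3.21, and sqt-1 over bli-4 from 0.0143 to 0.740 and 5.87. Of the other proprotein convertase genes, kpc-1 had 18.1, 10.3 and 17.1 FPKM, egl-3 had 27.4, 26.5 and 51.3 FPKM and aex-5 had 8.11, 13.5 and 20.0 FPKM.

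The astacin metalloprotease gene dpy-31 encodes a procollagen C-proteinase whose known substrate is the cuticle collagen SQT-3. It lies on chromosome III from 7202206 to 7207664 on the plus strand, with 592 codons. Its level was 16.2 FPKM in wild type, 17.3 in cpl-1* and 26.0 in the double strain. The log2 ratio was 0.09 for cpl-1* against wild type and 0.58, or 1.495-fold, for the double strain against cpl-1*. Relative to the muscle and intestine markers the latter ratio was -0.04. The substrate gene sqt-3 differed far more, with 29.4 FPKM in wild type, 107 in cpl-1* and 771 in the double strain, and log2 ratios of 1.87 and 2.84. The level of sqt-3 over that of dpy-31 was therefore 1.81 in wild type, 6.19 in cpl-1* and 29.7 in the double strain. A further collagen of the same genetic pathway, dpy-17, went the other way, with 32.8, 22.9 and 3.13 FPKM, so that its level over that of dpy-31 was 2.02, 1.32 and 0.121. The astacin genes of cuticle shedding differed from dpy-31 in different ways, with 0.785, 2.50 and 13.5 FPKM for nas-36 and 17.97, 16.7 and 30.9 FPKM for nas-37.

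The gene bli-5 encodes a small secreted protein with a Kunitz-type protease inhibitor domain, which is needed for an intact adult cuticle. It lies on chromosome III from 13427640 to 13429768 on the minus strand, with 202 codons, the fewest of the 9. Its level was 0.916 FPKM in wild type, 1.80 in cpl-1* and 7.80 in the double strain, the lowest of the 9 genes in every strain. Its log2 ratios were the largest of the 9 with 0.1 FPKM added, at 0.90 for cpl-1* against wild type and 2.06, or 4.16-fold, for the double strain against cpl-1*. The number of reads behind these low values is unknown. With 1 FPKM added, the log2 ratios of bli-5 were 0.55 and 1.65, below the 0.64 and 1.999 of dpy-18 in the same comparisons. The ratio of bli-5 for the double strain against wild type was 2.96 with 0.1 FPKM added and 2.2 with 1 FPKM added. The larger Kunitz-domain gene mlt-11, which is needed for molting, had 1.38, 3.67 and 30.3 FPKM, a log2 ratio of 3.01 between the cpl-1* strains. Hence mlt-11 was more abundant than bli-5 by 1.502, 2.04 and 3.89 times.

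**Figure D4:**
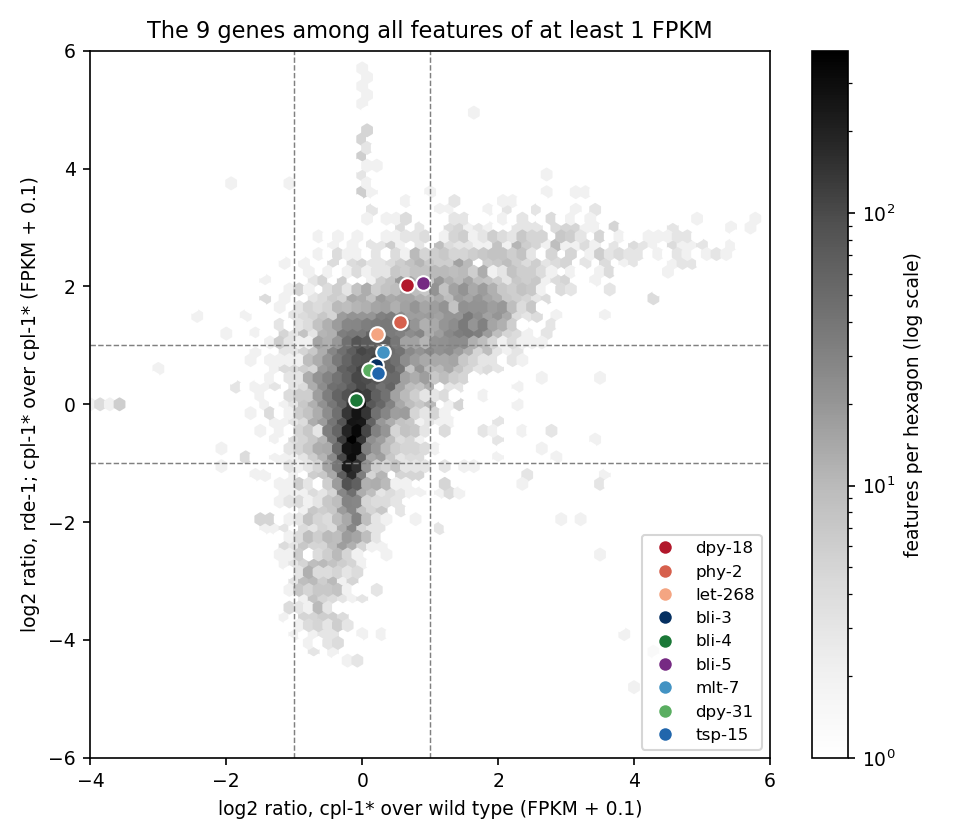
Log2 ratio of cpl-1* over wild type (x axis) against that of the double strain over cpl-1* (y axis) for 15971 identifiers (grey hexagons, darker for more, 75 outside the frame) and the 9 genes (coloured points, bli-3 mostly hidden by tsp-15), with dashed lines at 2-fold. None of the 9 passes a vertical line, and dpy-18, phy-2, let-268 and bli-5 lie above the upper horizontal line.

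Listed beside the 9 were 17 other genes, of which 15 had at least 1 FPKM in a strain. The list is mixed. It holds genes of collagen modification and relatives of the members by enzyme family, such as the convertase genes kpc-1, egl-3 and aex-5. In cpl-1* against wild type, 3 of these 15 were at least 2-fold higher, namely mlt-11, nas-36 and skpo-2, and 0 were lower, with a median log2 ratio of 0.32. Across all identifiers, 16.4% were higher and 2.5% lower. In the double strain against cpl-1*, 5 of the 15 were at least 2-fold higher, namely pdi-2, pxn-2, mlt-11, nas-36 and skpo-2, and 1 was lower, skpo-1. Across all identifiers, 26.1% were higher and 13.9% lower. The median log2 ratio of the 15, at 0.89, was close to the 0.88 of the 9 genes. The cyclophilin gene cyn-9, whose product acts in collagen folding in the cuticle, had 56.5, 51.2 and 29.0 FPKM and was the only other one of the 15 with a negative ratio between the cpl-1* strains. The sum over all 170 genes annotated as structural constituents of the cuticle was 44573 FPKM in wild type, 55029 in cpl-1* and 49861 in the double strain. That summed level was thus lower in the double strain than in cpl-1*, while the summed level of the 9 genes was higher. Both sums include bli-5, which carries that annotation. Single collagen genes went both ways. The adult-stage collagen col-19 had 1714, 1837 and 745 FPKM while dpy-7 had 2.36, 9.58 and 94.2 FPKM.

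In the annotation deposited with the values, no term covered all 9 genes, which were themselves chosen for such roles. The term for cuticle development in the molting cycle was attached to 6 of them (dpy-18, bli-3, bli-5, mlt-7, dpy-31 and tsp-15) and to 25 of the 15223 symbols with at least 1 FPKM. The term L-ascorbic acid binding, for the vitamin C that these hydroxylases need, was attached to dpy-18, phy-2 and let-268 and to 8 symbols in all. The same 3 genes were annotated with the endoplasmic reticulum, as were 227 symbols in all. Peptide cross-linking was attached to bli-3 and mlt-7 and to 3 symbols in all. Both serine-type endopeptidase activity and serine-type endopeptidase inhibitor activity were attached to bli-5, so the annotation does not settle whether its product is an enzyme.

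The position of some genes limits their values. At the loci of bli-4, bli-5, dpy-31 and tsp-15, as the authors assembled them, 1, 3, 12 and 1 other identifiers had values above 0. The locus of dpy-31 spans 36658 bases where the gene itself spans 5459, and that of bli-5 spans 19819 bases for a gene of 2129. Coding genes on the opposite strand overlap bli-3, bli-4, bli-5 and tsp-15, and whether the counting used strand is not given in the sources used here, so reads of these pairs may not be told apart. For dpy-18, phy-2, let-268 and mlt-7 no such overlap was annotated. Without the 4 genes at shared loci, the median log2 ratio of the remaining 5 was 0.30 for cpl-1* against wild type and 1.20 for the double strain against cpl-1*, and 3 of them were at least 2-fold higher in the latter.

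The genes most like each member over the 3 strains were taken as the 3 with the nearest pair of log2 ratios, cpl-1* against wild type and the double strain against cpl-1*, among 5982 named genes with at least 1 FPKM in all strains. With 3 pooled values a gene this is a weak description, and bli-5 was below the minimum. For dpy-18 the nearest was osm-7, at a distance of 0.029, followed by ltd-1 and ins-35. For phy-2 they were fhod-1 (0.045), clec-225 and vab-19, for let-268 gst-9 (0.019), flp-13 and elt-2, and for mlt-7 ttn-1 (0.016), nhr-226 and unc-96. The nearest to bli-3 were ost-1 (0.0077), nhx-3 and mct-4, those to tsp-15 were acp-2 (0.015), pbo-1 and ins-6, and those to dpy-31 were hrg-1 (0.0025), sek-3 and acr-16. For bli-4 they were the ribosomal protein gene rpl-36 (0.0098), sdhd-1 and ech-1.2. No 2 of the 8 genes shared one of these nearest genes.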

How the data were processed

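Total RNA was sequenced from 12 samples, 3 for each of 4 strains (wild type, cpl-1WT, cpl-1* and the double strain). Per the labels and the paper's methods, the authors mapped reads to Ensembl release 91 (WBcel235) with HISAT2 2.1.0, assembled transcripts with StringTie 1.3.4d and quantified them with Cuffdiff 2.2.1, so the deposited FPKM values are pooled, 1 per gene and strain. The authors' ratios, test statistics, P and q values and significance flags in the same table were not used. The files give no depth, so no interval for counting error can be stated.

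The table gives each strain's FPKM in 2 comparisons, and these were equal throughout. It holds 46218 rows per comparison. The 1 identifier on 2 rows was used by its first row, and 1 row per symbol was used for lists. Log2 ratios had 0.1 FPKM added. Identifiers with at least 1 FPKM in at least 1 strain were kept, and 2-fold was the limit for counting. Other settings tried were no added constant or 1 FPKM, no minimum or 5 FPKM, centring on the median, summing identifiers of a symbol and counting by symbol. Genes named are the 9, all other genes listed beside them, 6 collagens (sqt-3, dpy-17, rol-6, sqt-1, emb-9 and let-2) and the 3 nearest genes. Named outside this rule, after their values were seen, were elt-1, elt-3, nhr-23, nhr-25, lin-42, mlt-8, mlt-9, noah-1, noah-2, ptr-4, col-19 and dpy-7. The members and lists were chosen with earlier results of these data known. The symbols lin-26, mlt-10 and chs-1 had no row of their own. Ensembl release 115 (WBcel235) gave coordinates and coding lengths. Calculations used Python 3.11.15, pandas 2.3.3 and numpy 2.4.6, and were tested on simulated data.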

Additional observations from a re-analysis of the deposited data

How the results depend on the processing

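A shift by more than 1.5-fold was taken as a move, since no spread between samples is known. Under the other constants, minimums, centring and summing of identifiers, all counts and medians of the 9 genes stayed within that limit, and the 4 genes at least 2-fold higher in the double strain against cpl-1* (5 against wild type) were the same ones with no constant added, with 1 FPKM added and after centring on the median of all identifiers. Relative to the intestine and muscle markers, an alternative chosen after seeing the data, 2 genes (dpy-18 and bli-5) remained at least 2-fold higher in each of these comparisons, 1 gene (bli-4) was at least 2-fold lower against wild type, and the medians of the 9 were 0.26 and 0.19. The median for cpl-1* against wild type turned from 0.23 to -0.11 under the same alternative. With 1 FPKM added, the largest ratio of the 9 was that of dpy-18 in place of bli-5. Counts over all identifiers changed more with the constant and the minimum. For cpl-1* against wild type, 2621 were higher, or 1458 with 1 FPKM added, and 400 were lower, or 667 without a minimum, 181 at 5 FPKM and 213 with 1 FPKM added. With at least 5 FPKM, 2591 in place of 4169 were higher in the double strain than in cpl-1*, and 3216 in place of 5068 than in wild type. A higher minimum keeps fewer identifiers, so such counts can only fall as it rises, and the shares were not computed. All 9 genes passed 5 FPKM in at least 1 strain, so the minimums tried could not change their counts. No paired analysis was possible because each deposited value already pools a strain's samples, and for the same reason no sample could be left out.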
